A study of Mus musculus with 11 samples.

Results

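Cytosolic ribosomal proteins are the protein components of the ribosomes that translate nuclear messages, and their genes were described here in splenic B cells of 2 mouse strains cultured with or without anti-IgM. The genes were chosen by symbol: those that begin with Rpl or Rps followed by a digit, together with Rplp0, Rplp2, Rpsa and Fau. Symbols with a -ps ending, the S6 kinase genes and Rps19bp1 were left out. The choice gave 50 of the 18193 genes that could be named from probe sets with a single symbol. Of the 50, 24 are named for the small subunit and 26 for the large subunit, and 6 are paralogs of a standard ribosomal protein gene (Rpl3l, Rpl7l1, Rpl22l1, Rpl39l, Rps27l and Rps4l). They were read by 106 probe sets, and 24 genes had more than 1. No measured value entered this rule, though the genes were chosen with earlier results of these data known. All 50 genes were tested, since no filter on low values was applied. A further 110 probe sets list a ribosomal protein gene beside other symbols and were not used for these genes. Rplp1 and Rps27a were not analysed here.

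The 4 groups were NOD B cells with anti-IgM (2 arrays), NOD B cells unstimulated (3 arrays), NR4 B cells with anti-IgM (3 arrays) and NR4 B cells unstimulated (3 arrays). NOD is the diabetes-prone strain NOD/ShiLtJ, and NR4 is NOD.NOR-Chr4/DvsJ, which carries chromosome 4 sequence of the NOR strain on the NOD background. All mice were female and 6 weeks old. For each strain, cells came from 3 lots of 7 to 8 pooled spleens, purified by magnetic depletion of other cells, so a replicate is a pool of animals and not a single mouse. Cultures lasted 2 h, in medium alone or with 10 µg/ml of goat F(ab')2 fragments against mouse IgM, which bind the B cell receptor. Total RNA was amplified from an oligo(dT) primer and hybridized to whole-genome Affymetrix arrays.

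A cytosolic ribosome contains each of its proteins in about equal number, and ribosomal protein messages are among the most abundant in most cells. The messages begin with a run of pyrimidines called the TOP element. Through it, the kinase mTOR and the RNA-binding protein Larp1 set how strongly the messages are translated. Antigen receptor signalling is known to raise protein synthesis in lymphocytes, and the transcription factor Myc promotes ribosome production. Arrays measure how much message is present and not how much of it is translated.

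The start sites of 8 genes are printed to show the sequence around the start, where a TOP element lies, for genes whose values are given below. Each is 30 bases of the gene's own strand, from 10 bases before to 20 after the RefSeq transcription start (build GRCm38.p6), and capitals mark the letters CTTTC where present. The windows are chr2:32961702-32961731 (plus strand) for Rpl12, chr10:128626487-128626516 (minus) for Rps26, and chr3:28805498-28805527 (plus) for Rpl22l1. They are chr9:120571507-120571536 (plus) for Rpl14, chr4:86857348-86857377 (minus) for Rps6, and chr3:90213629-90213658 (minus) for Rps27. The last are chr19:6057937-6057966 (plus) for Fau and chr16:10170218-10170247 (plus) for Rpl39l.
Rpl12: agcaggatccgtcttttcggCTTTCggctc
Rps26: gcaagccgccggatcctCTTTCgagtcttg
Rpl22l1: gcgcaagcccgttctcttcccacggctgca
Rpl14: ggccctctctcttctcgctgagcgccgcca
Rps6: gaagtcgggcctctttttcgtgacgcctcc
Rps27: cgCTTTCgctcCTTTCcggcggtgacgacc
Fau: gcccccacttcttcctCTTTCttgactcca
Rpl39l: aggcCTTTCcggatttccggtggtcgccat

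Each window holds an unbroken run of C and T, from 7 bases in Rpl12 and Rpl39l to 16 in Fau. The 3 windows without capitals have such runs too, of 10 bases in Rpl22l1, 14 in Rpl14 and 10 in Rps6. In Rpl39l the run and the capitals lie wholly before the RefSeq start, and so do the first capitals of Rps27. In Rpl12 the capitals lie outside the longest run. How often such runs occur over all genes was not counted, so the runs alone do not mark a TOP element. Of the 44 ribosomal protein genes found in the RefSeq promoter table, 15 (34.1%) had CTTTC on their own strand between 20 bases before and 30 after the start. The share over all 27025 genes of that table was 7.66%. On the opposite strand of the same window, 9.09% of the ribosomal protein genes and 7.3% of all genes held these letters. The letters CCGGAAG, the core of sites for ETS family factors, were searched on both strands of the 300 bases around the start and do not overlap with CTTTC in sequence. They were present in 21 of the 44 genes (47.7%) and in 9.93% of all genes.

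Values are log2 signals with each probe set centred on its median over the 11 arrays, as deposited. They show differences between arrays and carry no level, so an abundant message cannot be told from one near background, and levels cannot be compared between genes. The same holds for the B cell label: the level of B cell markers cannot be read from centred values. Differences in the markers are given below. A gene was called when limma's Benjamini-Hochberg adjusted p over all 18193 genes was below 0.05. In bulk RNA, a lower signal from fewer cells of a type cannot be told apart from less RNA per cell.

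The arrays differed little in these genes. The median over the 50 genes was 0.06 and 0.04 on the NOD anti-IgM arrays, and 0.01, 0.00 and 0.03 on the unstimulated NOD arrays. It was -0.10, -0.03 and 0.00 on the NR4 anti-IgM arrays, and -0.04, -0.06 and -0.06 on the unstimulated NR4 arrays. Thus every NOD array but replicate 2 of the unstimulated cells lay above every NR4 array, and that replicate lay below 1 NR4 array, anti-IgM replicate 3. NR4 anti-IgM replicate 1 had the lowest median and held the lowest value of 19 of the 50 genes, where 12.3% of all genes had their lowest value. Unstimulated NR4 replicate 2 held the lowest value of 15 of the 50, beside 6.88% of all genes. On NR4 anti-IgM replicate 1, the centred signals of probe sets at the 3' ends of Gapdh and beta-actin exceeded those at the 5' ends by 0.96 log2 units on average. The other 10 arrays had -0.08 to 0.29, and NR4 anti-IgM replicate 1 is followed up below. Its part in the values below was not tested other than by leaving it out. In NOD these 3' to 5' differences were 0.21 and 0.13 with anti-IgM, against -0.01, -0.04 and -0.08 unstimulated, without overlap. In NR4 they were 0.96, 0.04 and 0.23 with anti-IgM, against -0.05, -0.07 and 0.29 unstimulated, and overlapped. Their part in the response was not tested other than by leaving out each array.

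**Figure D1:**
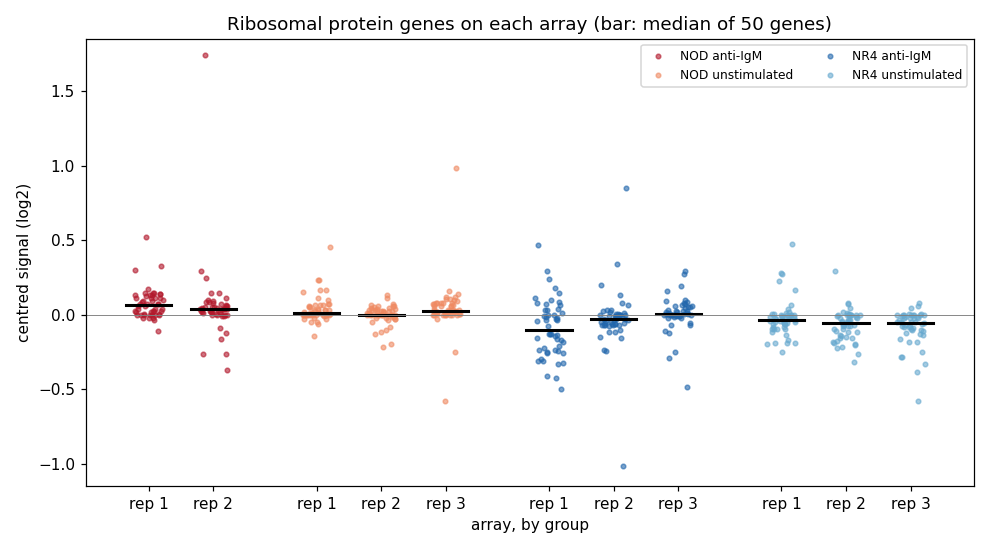
Centred log2 signal of the 50 ribosomal protein genes (points) on each of the 11 arrays, grouped as NOD anti-IgM, NOD unstimulated, NR4 anti-IgM and NR4 unstimulated. Black bars are medians over the 50 genes, which range from -0.10 on NR4 anti-IgM replicate 1 to 0.06 on NOD anti-IgM replicate 1.

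The first comparison asked whether 2 h of anti-IgM changed the ribosomal protein messages. None of the 50 genes was called when the response was averaged over both strains (limma), while 1.56% of all genes were. The median difference, anti-IgM minus unstimulated, was 0.035 log2 units over the 50 genes and 0.00 over all genes. It was above 0 for 32 of the 50 (64%), beside 51% of all genes. The smallest limma adjusted p among them was 0.239, and 1 gene (2%) had an unadjusted p below 0.05, beside 11.4% of all genes. The 24 small subunit genes had a median of 0.022 and the 26 large subunit genes a median of 0.044.

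The averaged response could be bounded closely for most of the genes. The 95% interval of the difference lay within 0.5 log2 units of 0 for 45 of the 50 (90%), beside 79.1% of all genes, and within 1 for all 50, beside 98.5%. The 5 exceptions to the narrower limit were Rpl14, Rps16 and the paralogs Rpl39l, Rpl3l and Rps4l. These are the 5 genes with the largest spread between replicates.

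Among the proteins of the ribosomal stalk, which recruits the translation factors that split GTP, Rpl12 had the smallest p of the response. Rpl12, which anchors the stalk, had centred values of 0.30 and 0.29 on the NOD anti-IgM arrays, against 0.03, -0.11 and 0.00 on the unstimulated NOD arrays. In NR4 it had -0.14, 0.00 and 0.27 with anti-IgM, against -0.20, -0.22 and -0.02 unstimulated. The conditions did not overlap in NOD and overlapped in NR4. The averaged difference was 0.25 (SE 0.09, 1.19-fold higher, limma adjusted p = 0.239). Over 20 other settings the difference was 0.20 to 0.32 and was not called, with a smallest adjusted p of 0.057. Rplp0, the stalk scaffold to which the other P proteins bind, differed by 0.16 (SE 0.11, limma adjusted p = 0.715), and Rplp2, an acidic stalk protein, by 0.12 (SE 0.07, limma adjusted p = 0.651).

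Rpl41, the smallest protein of the large subunit, was the only gene of the 50 whose arrays did not overlap between conditions in either strain, both times higher with anti-IgM. For all genes this share was 2.08% higher and 3.56% lower. Rpl41 had 0.07 and 0.04 on the NOD anti-IgM arrays, against 0.00, -0.11 and 0.03 on the unstimulated ones. In NR4 the values were 0.11, -0.06 and 0.16 with anti-IgM, against -0.10, -0.20 and -0.08. The gaps between the conditions were narrow in both strains. The averaged difference was 0.14 (SE 0.07, limma adjusted p = 0.515).

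Of the small subunit genes, Rps6 encodes the classic substrate of the S6 kinases that act below mTOR. Its difference was -0.13 (SE 0.09, limma adjusted p = 0.750), with a 95% interval from -0.34 to 0.08. That value is the median of 2 probe sets at 0.055 and -0.32, and taking the first alone turned the direction. Rpsa, also known as the laminin receptor, was at -0.11 (SE 0.07, limma adjusted p = 0.679), with 2 probe sets at -0.24 and 0.02. Fau, which encodes a ubiquitin-like protein fused to a small subunit protein, was at 0.05 (SE 0.06, limma adjusted p = 0.909).

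The highest and lowest differences of the response belonged to genes with a large spread. Rpl39l, a paralog of Rpl39 known mainly from testis, differed by 0.33 (SE 0.30), with 0.00 and 1.74 on the NOD anti-IgM arrays and 0.00, -0.13 and 0.98 on the unstimulated ones. In NR4 all 6 arrays of Rpl39l lay between -0.18 and 0.13. Rpl14, a large subunit protein, was at -0.31 (SE 0.16, limma adjusted p = 0.555), and its lowest value, -1.02, was on NR4 anti-IgM replicate 2. It was also low on NR4 anti-IgM replicate 1 (-0.41) and NOD anti-IgM replicate 2 (-0.27). Rps16 had its highest value, 0.85, on NR4 anti-IgM replicate 2. Over the same 20 settings, 11 of which leave out an array, the response of Rpl39l ranged from -0.11 to 0.76 and that of Rpl14 from -0.43 to -0.18, and neither was called.

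**Figure D2:**
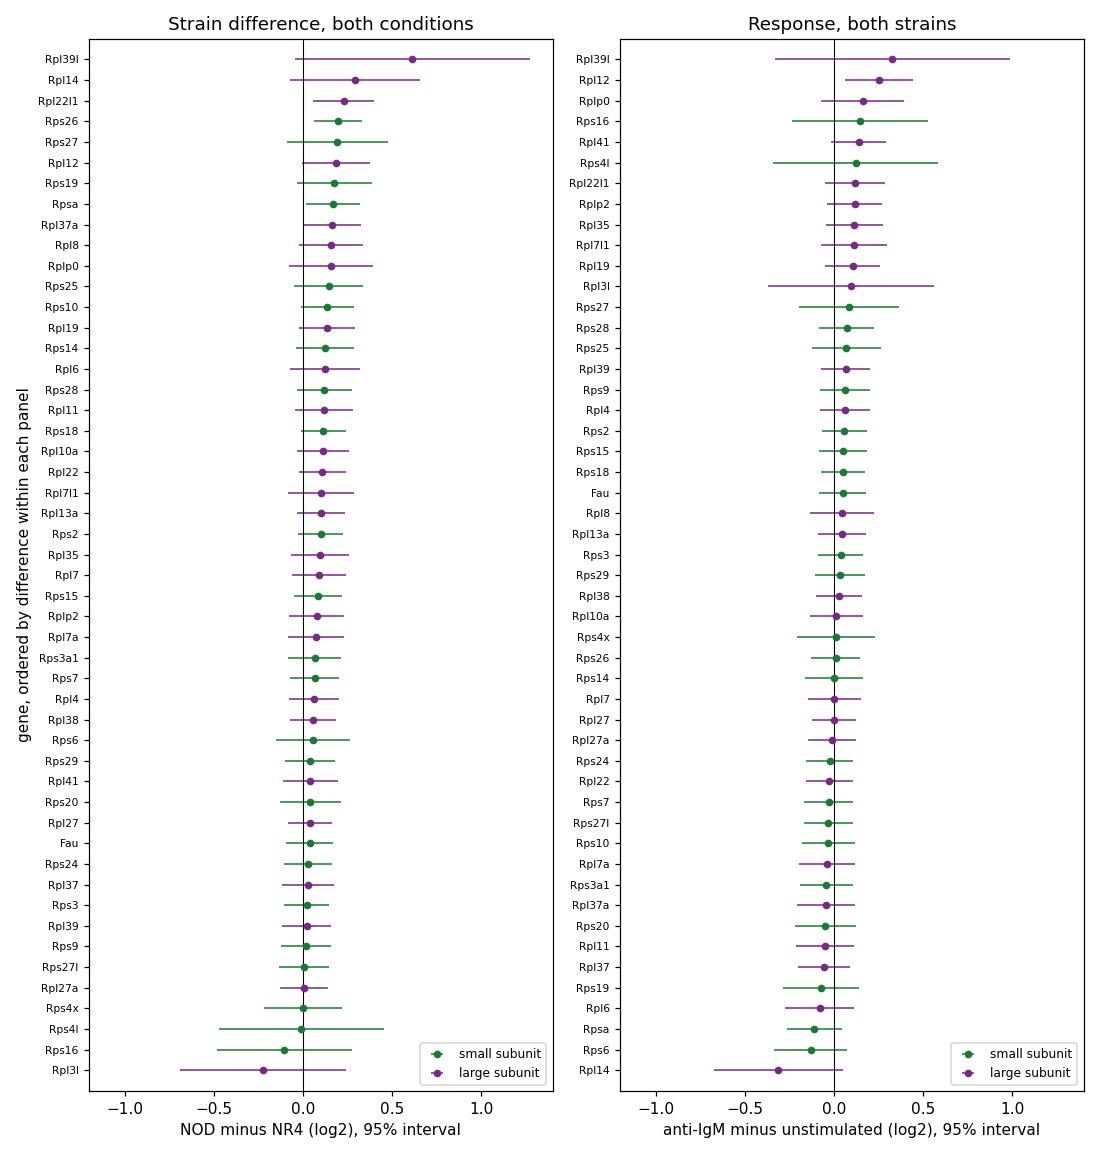
Averaged differences of the 50 genes with limma's 95% intervals in log2 units, NOD minus NR4 over both conditions (left) and anti-IgM minus unstimulated over both strains (right). Each panel has its own gene order, green marks the small and purple the large subunit, and the points lie above 0 for 47 genes on the left and for 32 on the right.

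Within single strains the result was the same. In NOD, 0 of the 50 genes were called (limma), beside 0.115% of all genes, and 1, Rpl12 at 0.32 (SE 0.13, limma adjusted p = 0.838), had an unadjusted p below 0.05, beside 5.15%. In NR4, 0 of the 50 were called (limma), beside 0.412%, and 0 had an unadjusted p below 0.05, beside 9.63%. The medians were 0.014 in NOD and 0.030 in NR4. In NOD, anti-IgM and unstimulated arrays were apart for 12 genes higher with anti-IgM (24%, beside 8.27% of all genes) and for 2 lower, Rpl22 and Rps10 (4%, beside 12%). In NR4 this held for 3 genes higher with anti-IgM, namely Fau, Rpl41 and Rps9 (6%, beside 5.12%), and for 0 lower (beside 7.49%).

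The difference between the responses, NOD minus NR4, was called for 0 of the 50 genes and for 0% of all genes (limma), and 0 of the 50 had an unadjusted p below 0.05, beside 1.4%. Its median was 0.019 over the 50 genes, with 35 above 0 (70%, beside 45.3%). Leaving out NR4 anti-IgM replicate 1 turned this direction, to a median of -0.029 with 17 above 0. After quantile normalization 23 were above 0. For Rpl39l, Rpl3l and Rps16 the 95% interval of this difference reached beyond 1 log2 unit, so it was poorly bounded with this number of arrays.

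The second comparison asked whether the strains differed. No ribosomal protein gene was called when NOD was compared with NR4 over both conditions (limma), while 0.121% of all genes were. The 50 genes nevertheless leaned one way: 47 (94%) were higher in NOD, beside 50.6% of all genes, with a median of 0.092 log2 units beside 0.00 for all genes. Only Rpl3l (-0.22), Rps16 (-0.10) and Rps4l (-0.01) were lower in NOD. The quartiles of the 50 differences were 0.04 and 0.14. The 95% interval lay within 0.5 log2 units of 0 for 47 genes (94%, beside 83.7%), all but Rpl14, Rpl39l and Rpl3l, and within 1 for 49 (98%, beside 99.2%). An unadjusted p below 0.05 was reached by 4 genes (8%, beside 4.39%), which were Rps26, Rpl22l1, Rpsa and Rpl37a.

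In some of the genes the array values were ordered by strain. In 16 of the 50 (32%, beside 1.01% of all genes) every NOD array was above every NR4 array within each condition, and in 0 the order was reversed (beside 0.528%). For 7 genes (14%, beside 0.335%) all 5 NOD arrays were above all 6 NR4 arrays, and for 0 they were below (beside 0.264%). The 7 were Rpl11, Rpl22, Rpl37a, Rps10, Rps18, Rps19 and Rps26. For Rps18, which has 6 probe sets, the averaged strain difference was -0.13 to 0.13 over 20 other settings, above 0 in 19. All 50 genes share the same 11 arrays, so a shift of an array moves many of them at once, and the counts are a description and not a test.

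Rps26, a small subunit protein that contacts the message as it leaves the ribosome, had the smallest p. It had centred values of 0.14 and 0.11 on the NOD anti-IgM arrays and 0.17, 0.07 and 0.10 on the unstimulated NOD arrays. In NR4 it had -0.16, -0.06 and 0.00 with anti-IgM and -0.05, -0.10 and -0.09 unstimulated. The strains did not overlap at all, and the conditions overlapped within each strain. The averaged difference was 0.19 (SE 0.06, 1.14-fold higher in NOD, limma adjusted p = 0.758). Over 20 other settings it was 0.17 to 0.26 and was not called, with a smallest adjusted p of 0.246.

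Rpl22l1, the paralog of Rpl22, had 0.13 and 0.25 on the NOD anti-IgM arrays and 0.00, 0.02 and 0.12 on the unstimulated NOD arrays. In NR4 it had -0.24, 0.06 and -0.02 with anti-IgM and -0.10, -0.11 and -0.25 unstimulated. The strains were apart within each condition and overlapped when the conditions were joined. Its difference was 0.23 (SE 0.08, 1.17-fold higher in NOD, limma adjusted p = 0.849). Rpl22 itself, a large subunit protein needed for T cell development in mice, differed by 0.11 (SE 0.06, limma adjusted p = 1.00), with NOD arrays at 0.03 to 0.07 and NR4 arrays at -0.16 to 0.00.

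Rpsa had 0.07 and -0.01 on the NOD anti-IgM arrays and 0.16, 0.02 and 0.12 on the unstimulated NOD arrays. In NR4 it had -0.25, -0.04 and -0.25 with anti-IgM and 0.00, -0.02 and -0.07 unstimulated. The strains were further apart with anti-IgM than without it, though the difference between the responses, 0.08 (SE 0.14), was within its error. The averaged strain difference was 0.17 (SE 0.07, limma adjusted p = 1.00).

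**Figure D3:**
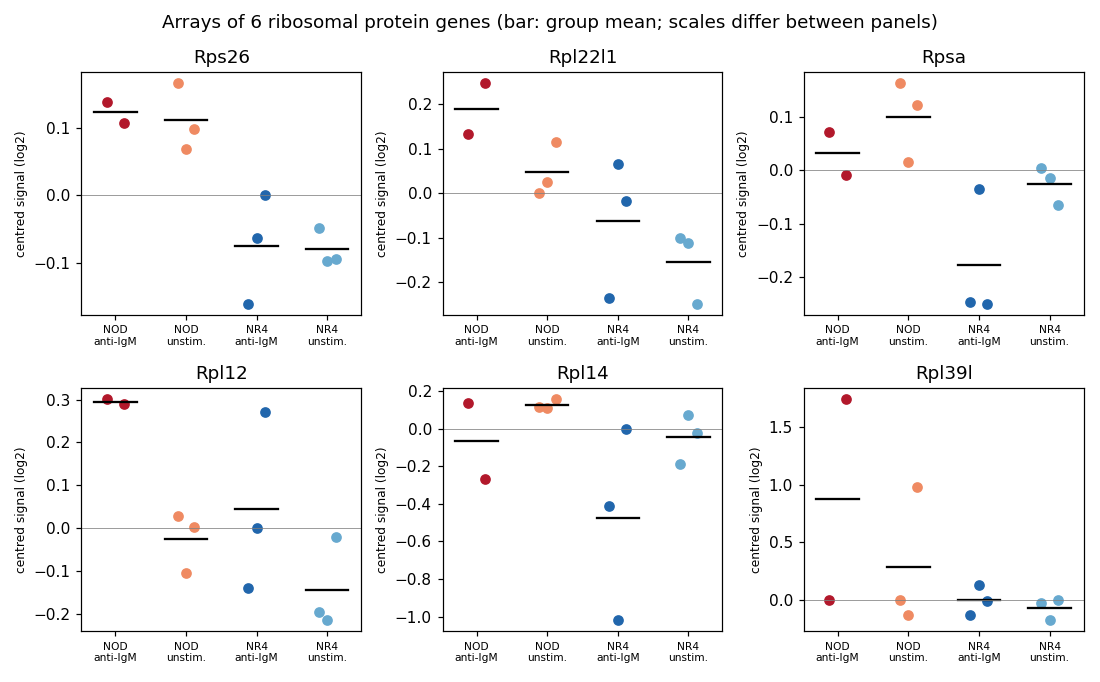
Centred log2 signal of Rps26, Rpl22l1, Rpsa, Rpl12, Rpl14 and Rpl39l on each array (points) with group means (bars), groups from left to right NOD anti-IgM, NOD unstimulated, NR4 anti-IgM and NR4 unstimulated. The strains are apart for Rps26, the highest and lowest points of Rpl39l and Rpl14 are single arrays (1.74 and -1.02), and the vertical scales differ between panels.

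Rps19, whose human counterpart is mutated in Diamond-Blackfan anaemia, a failure of red cell production, was another of the 7. It had 0.04 and 0.05 on the NOD anti-IgM arrays and 0.03, 0.07 and 0.11 unstimulated, against -0.50, -0.04 and 0.00 in NR4 with anti-IgM and 0.00, -0.05 and -0.13 unstimulated. The value of -0.50 was on NR4 anti-IgM replicate 1. The averaged difference was 0.18 (SE 0.10, limma adjusted p = 1.00). Of the same 7, Rps10 was at 0.14 (SE 0.07) and Rpl11 at 0.12 (SE 0.07), and neither was called.

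Only 4 of the 50 genes lie on chromosome 4, the chromosome that distinguishes the strains by name. They are Rps20 and Rps6 of the small subunit, Rpl11, whose protein can bind the p53 regulator Mdm2, and Rpl22. Their strain differences were 0.04 for Rps20, 0.06 for Rps6 (probe sets at 0.23 and -0.12), 0.12 for Rpl11 and 0.11 for Rpl22, on the same scale as the median of 0.092 over all 50. None was called.

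The lean was present in each condition. In unstimulated cells 0 of the 50 were called (limma), beside 0.0605% of all genes, and 46 (92%, beside 57.1%) were higher in NOD, with a median of 0.088. Arrays did not overlap for 26 genes higher in NOD (52%, beside 4.01%) and for 0 lower (beside 2.37%). Only Rps26, at 0.19 (SE 0.08), had an unadjusted p below 0.05 (2%, beside 1.54%). With array weights 19 did, and the smallest limma adjusted p was 0.082. That setting also raised the calls among all 18193 genes from 11 to 127. The share of all genes with such an unadjusted p was not taken under it, so the 19 cannot be read as particular to these genes. With anti-IgM 0 of the 50 were called (limma), beside 0.0495%, and 43 (86%, beside 47.8%) were higher in NOD, with a median of 0.098. Arrays did not overlap for 18 genes higher (36%, beside 7.97%) and 0 lower (beside 6.14%), and only Rpl22l1, at 0.25 (SE 0.11), had an unadjusted p below 0.05 (2%, beside 4.34%).

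Leaving out the array with the large 3' to 5' difference lowered the median and kept its direction. Without NR4 anti-IgM replicate 1 the median strain difference was 0.075 over both conditions, with 48 of 50 above 0. In anti-IgM cells it was then 0.062, with 43 above 0. The difference in unstimulated cells is taken between other arrays, whose 3' to 5' differences were not all alike. They were -0.05, -0.07 and 0.29 on NR4 replicates 1, 2 and 3, and -0.08 to -0.01 in NOD. Their part in the strain difference was not tested other than by leaving out each array.

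Limma draws the spread of each gene towards that of all genes, and these genes had far less spread. The typical SD between replicate arrays within a group was 0.082 log2 units (median over the 50), against 0.18 over all genes, and 44 of the 50 (88%) lay below the median of all genes. The steadiest were Rpl27 (0.02), Rps18, Rps3 and Rps2 (0.03 each) and Rpl38 (0.04). Rps3 sits at the message entry, and Rpl38 is known from mice for its part in the translation of Hox messages. The most variable were Rpl39l (0.57), Rpl3l (0.40), a paralog known from striated muscle, Rps4l (0.40), which RefSeq lists as a transcribed pseudogene and which was kept by its symbol, Rps16 (0.32) and Rpl14 (0.30). The prior SD of the moderation was 0.16, so the standard errors above exceed those given by the replicates of the steady genes alone. Without moderation 13 of the 50 genes had an unadjusted p below 0.05 for the strain difference over both conditions. The smallest adjusted p was then 0.234, for Rps18, and 0 of the 50 were called, beside 15 of all genes. The share of all genes with an unadjusted p below 0.05 was not taken without moderation.

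**Figure D4:**
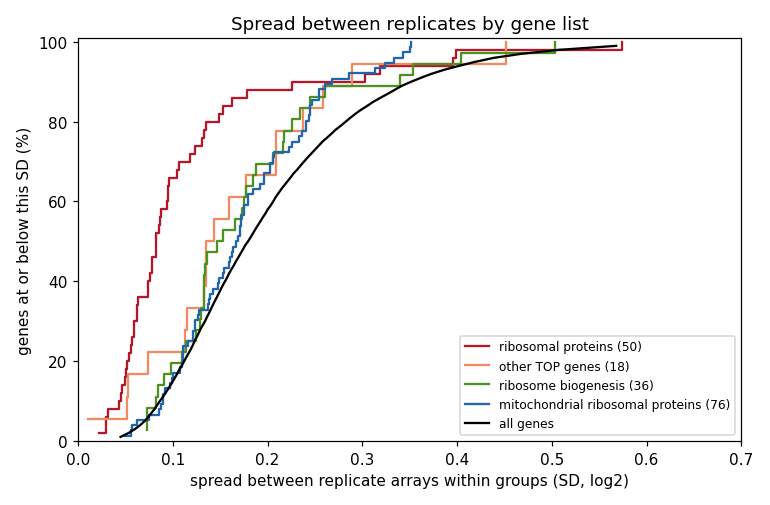
Share of genes (percent) at or below each SD between replicate arrays within groups (log2 units), for the 50 ribosomal protein genes, 3 other lists and all genes. The curve of the ribosomal proteins lies left of the others over most of its length, with a median SD of 0.082 against 0.18 for all genes.

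The paralogs lay on both sides of 0 between the strains. Of the 6, Rpl22l1 and Rpl39l had the largest strain differences, at 0.23 and 0.61 (SE 0.30). Rpl7l1, at 0.10 (SE 0.08), and Rps27l, a target of p53 in humans, at 0.01 (SE 0.06), lay closer to 0. Rpl3l and Rps4l were below 0. Without the 6 paralogs the median strain difference of the other 44 genes was 0.092, with 43 above 0. In the response 5 of the 6 paralogs were above 0, with a median of 0.11 and 0 called (limma). Without them the median response was 0.021 over the other 44 genes, with 27 above 0, beside 0.035 over all 50.

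Other genes of the pathway were listed for comparison. The 18 other genes with TOP messages, mostly translation factors, had 0 called in either direction in the strain comparison (limma), a median of 0.10 and 18 of 18 above 0. Pabpc1, the poly(A)-binding protein, was at 0.20 (SE 0.09, limma adjusted p = 1.00). Among the 36 ribosome biogenesis genes 0 were called, with a median of 0.067 and 31 above 0, and the 76 mitochondrial ribosomal protein genes had 0 called, a median of 0.057 and 57 above 0. The lean to NOD was therefore also present in these lists.

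In the response the lists were less alike. Over the 36 ribosome biogenesis genes the median was 0.13, with 29 above 0 and 0 called in either direction (limma). Gnl3, a nucleolar GTPase, was at 0.37 (SE 0.09, limma adjusted p = 0.073), and Nop58, a core protein of the box C/D particles that guide rRNA methylation, at 0.33 (SE 0.08, limma adjusted p = 0.083). The 76 mitochondrial ribosomal protein genes had a median of -0.059 with 19 above 0 and 0 called. The 18 other TOP genes had a median of 0.011 with 11 above 0 and 0 called. Of 15 genes that control ribosomal protein synthesis, 1 rose and 0 fell, namely Myc by 1.46 (SE 0.18, limma adjusted p = 0.0049).

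**Figure D5:**
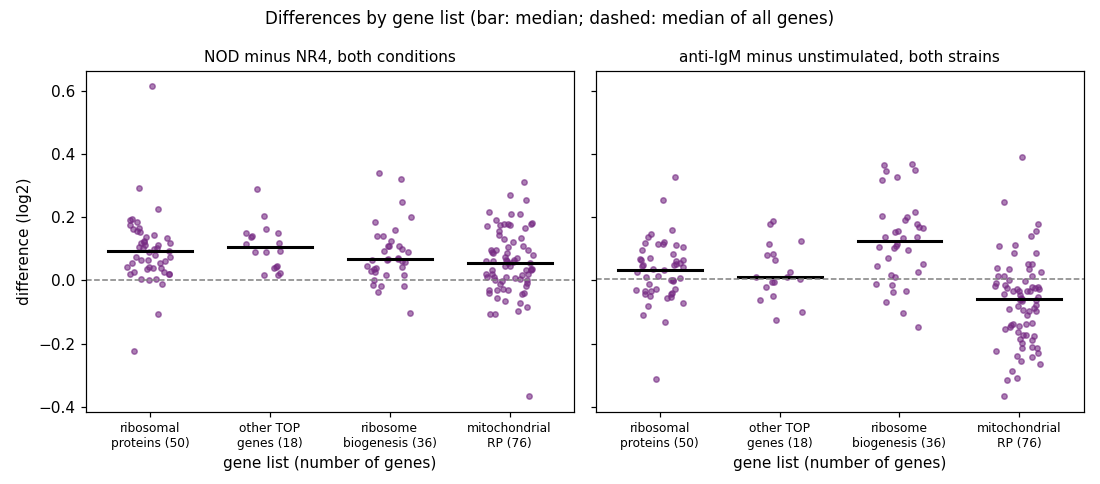
Averaged differences in log2 units of the genes of 4 lists (points), NOD minus NR4 on the left and anti-IgM minus unstimulated on the right, with list medians (bars) and the median of all genes (dashed). The ribosomal proteins have medians of 0.092 and 0.035, ribosome biogenesis genes 0.067 and 0.13, and mitochondrial ribosomal proteins 0.057 and -0.059.

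None of the markers of other cell types was called in the averaged strain comparison (limma), but several differed by more than the ribosomal protein genes did. Among T cell markers, Cd3g was at 1.02 (SE 0.25) with a limma adjusted p of 0.409. Cd4 was at -0.72 (SE 0.12) with a limma adjusted p of 0.072, and 4 of the 6 T cell markers had an unadjusted p below 0.05. The NK markers Gzma and Nkg7 were at 0.96 (SE 0.34) and 0.52 (SE 0.25). The means over lists therefore join markers with differences on both sides of 0. The mean over 6 NK markers, of which 4 were above 0, ranged from -0.01 to 0.24 over the NOD arrays and from -0.71 to 0.11 over the NR4 arrays. The mean over 6 T cell markers, 4 of them above 0, ranged from -0.09 to 0.28 in NOD and from -0.42 to 0.18 in NR4. The mean over 4 monocyte markers, 3 of them above 0, lay between -0.04 and 0.33 in NOD and between -0.26 and 0.30 in NR4. The strains overlapped in all 3 of these lists.

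The mean over 5 plasma cell markers, 0 of them above 0, lay between -0.18 and -0.01 in NOD and between 0.05 and 0.16 in NR4, and it was the only marker list whose strains did not overlap. Of the 5 B cell markers 3 were above 0 in the strain comparison, and 2 fell with anti-IgM, Cd79b by 0.62 and Ms4a1 by 0.51 on the log2 scale (limma adjusted p = 0.016 for both). Which markers are near background cannot be read from centred values. Their part in the ribosomal protein differences was not tested.

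The differences were also set out by the letters near the start, as a description. The 15 genes with these letters had a median strain difference of 0.10, with 15 above 0, and the 29 without had 0.082, with 27 above 0. Their medians in the response were 0.043 with the letters and 0.037 without. For CCGGAAG, the 21 genes with the letters had a median strain difference of 0.094 and the 23 without had 0.10. In the response the median was 0.0084 with these letters, with 11 genes above 0, and 0.048 without them, with 16 above 0. Rps26, with CTTTC in its printed window, and Rpl22l1, without it there, both lay near the top of the strain difference.

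Probe sets of a gene did not always agree. Of the 24 genes with several probe sets, the averaged response differed between them by less than 0.2 log2 units in 14 and by more in 10, up to 0.59 in Rpl35. In 14 of the 24 genes the probe sets lay on both sides of 0. The 5 that differed most were Rpl35, Rps10, Rps20, Rps6 and Rpl13a. Fitted as single probe sets, 1 of the 106 was called in the averaged response (limma over 34945 probe sets), beside 1.42% of all these probe sets. It was the sixth of Rpl35, a protein near the exit of the nascent chain.

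This probe set had 0.96 and 0.56 on the NOD anti-IgM arrays, against 0.00, -0.10 and -0.07 unstimulated, and 0.05, 0.31 and 0.50 on the NR4 anti-IgM arrays, against -0.17, -0.11 and -0.35. The conditions did not overlap in either strain. Its difference was 0.65 (SE 0.11, limma adjusted p = 0.023), while the other 5 probe sets of Rpl35 gave 0.07 to 0.12 with limma adjusted p from 0.708 to 0.913. The call held in 4 of the 11 fits that leave out an array, where the difference ranged from 0.55 to 0.76 and the adjusted p reached 0.092. The gene value of Rpl35, the median of its probe sets, was 0.11 (SE 0.07) and was not called.

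The 110 probe sets that list a ribosomal protein gene beside other symbols were fitted together with all others except the array's control probe sets. Of the 110, 1 was called between the strains over both conditions (limma), beside 0.118% of these probe sets. The same 1 was called in unstimulated cells, beside 0.0577%, and with anti-IgM, beside 0.0377%. It lists Rps19 together with the pseudogene Rps19-ps3.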

How the data were processed

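The authors deposited 1 table of 45101 probe sets on 11 arrays, which the submitters' processing notes tie to RMA. RMA removes background, equalizes the arrays' distributions and combines the probes of a set. The deposited values were taken as log2, since the log base is not given in the sources used here, nor are the software version and the build. For all 45101 probe sets the median over the arrays is 0, so the values were centred before deposit and hold no levels or detection calls. A filter on dim probe sets could therefore not be run. Precision depends on the number of arrays.

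The platform annotation gave the symbols, and probe sets with 1 symbol were combined into genes by their median. Group means (4) were fitted to 18193 genes with limma 3.58.1 in R 4.3.3, leaving 7 residual degrees of freedom, with empirical Bayes moderation. Tests were two-sided, and p-values were adjusted by Benjamini-Hochberg separately in 7 comparisons, with calls at 0.05. Groups and replicate numbers come from the sample titles. Both cultures of a strain were set up from shared lots, and the labels do not say that the replicate number marks the lot. Same-numbered arrays deviated together in unstimulated NOD against NR4 (correlations of deviations 0.59, 0.21 and 0.51) and in NR4 with anti-IgM against unstimulated (0.33, 0.22 and 0.47). Comparisons with stimulated NOD have only 2 pairs, and pairing is not established for them. No 2 arrays held identical values (0 pairs). On simulated data for 18193 genes, 81% of genes changed by 1 log2 unit were called in the averaged response and 91% in the averaged strain difference. The share was 73% to 78% within single strains and conditions and 40% for the difference between the responses. False calls were 7 to 16 per comparison. The simulated noise was independent between genes and arrays, unlike the shared deviations above. Changes below 1 log2 unit were not simulated, so the shares do not apply to the small differences described here.

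The genes and lists were chosen with earlier results of these data known. Genes named are the 3 highest and 3 lowest of each comparison, those on chromosome 4, the paralogs, the stalk genes, Rpsa and Fau, and the 5 with the largest disagreement between probe sets, the 5 with the largest and the 5 with the smallest spread. Rps19, Rps27, Rps9 and Rpl37a were added after their values were seen. Alternatives were another choice of probe set, probe sets without cross-hybridization suffixes, quantile normalization, centring of arrays, replicate blocks, array weights and leaving out each array. Moderation choices, the paralogs and probe sets with several symbols were added after seeing the data. Promoter sequences and start sites are from RefSeq (GRCm38.p6), used for these sequences, names and gene order alone.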

Additional observations from a re-analysis of the deposited data

Results flagged for a closer look

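Among the 110 probe sets that list a ribosomal protein gene beside other symbols, 1 stood apart. It lists Rps19 and the pseudogene Rps19-ps3, belongs to no gene of the comparisons above, and cannot be assigned to either symbol. It had 1.46 and 1.71 on the NOD anti-IgM arrays and 1.81, 1.56 and 1.60 on the unstimulated NOD arrays. In NR4 it had -0.15, -0.50 and 0.00 with anti-IgM and -0.36, -0.56 and -0.32 unstimulated. The strains were far apart, and the conditions overlapped in both strains.

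Averaged over both conditions the difference, NOD minus NR4, was 1.93 on the log2 scale, with an SE of 0.11 (limma adjusted p = 5.1e-05 over 45037 probe sets, of which 0.118% were called). The difference was 2.07 in unstimulated cells (limma adjusted p = 0.00052) and 1.80 with anti-IgM (limma adjusted p = 0.0036). With each of the 11 arrays left out, the averaged and the unstimulated calls held in 11 fits and the anti-IgM call in 10. Without NOD anti-IgM replicate 2 the anti-IgM difference was 1.67 with an adjusted p of 0.0997, and without moderation its adjusted p was 0.050. The 1 probe set with the single symbol Rps19 gave 0.18 (SE 0.10) and was not called. Of the other 109 probe sets with several symbols 0 were called, and their averaged strain differences were -0.16 to 0.28.

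In the RefSeq gene order Rps19 lies on chromosome 7 and Rps19-ps3 on chromosome 4, at place 2667 of 2923 genes. It lies between the coding genes Zfp984 and Zfp933, and 7 places from Zfp979. A sequence difference under the probes and a difference in message cannot be told apart with 1 probe set.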

How the results depend on the processing

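No ribosomal protein gene was called in any of the 7 comparisons under any setting that names genes. Taking the 110 probe sets with several symbols in place of the genes gave 1 call in each of the strain difference over both conditions, in unstimulated cells and with anti-IgM, all from the Rps19 and Rps19-ps3 probe set. With each array left out, the median strain difference over both conditions was 0.075 to 0.11 with 45 to 48 genes above 0, and the median averaged response was 0.024 to 0.041 with 28 to 35 above 0. The median strain difference with anti-IgM was 0.062 to 0.12, its lowest value without NR4 anti-IgM replicate 1. The median difference between the responses was -0.029 to 0.047 with 17 to 35 genes above 0, its lowest value without that same array, and 23 were above 0 after quantile normalization. Over the other settings, which hold 44 to 50 of the genes, the median strain difference was 0.086 to 0.12 with 40 to 47 above 0, and the median averaged response was 0.021 to 0.060 with 27 to 34 above 0. The strain range includes the block of lot within strain, which gave 0.12 with 40 above 0 and cannot adjust a strain difference, as described below. The lowest response was without the paralogs. For the 110 probe sets with several symbols the medians were 0.071 with 98 above 0 and 0.013 with 68 above 0. The cause of these shifts was not tested.

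With replicate number added as a block, 0 genes were called, the median strain difference was 0.10 with 46 above 0, and the median averaged response was 0.035 with 31 above 0. With a block of lot within strain these were 0 called, 0.12 with 40 above 0, and 0.036 with 33 above 0. Each lot belongs to a single strain, so this block cannot adjust a strain difference for lot. Its strain values depend on which lots serve as the reference and are not lot-adjusted differences. They also enter the ranges over 20 other settings given for single genes. Neither block changed a call among the 50 genes. With replicate number as a block, 9 of the 50 had an unadjusted p below 0.05 in the strain difference over both conditions, beside 4 without it. The smallest limma adjusted p was 0.327, beside 0.758. In the averaged response these were 4 genes and 0.075, beside 1 and 0.239. Among all genes, this block gave 558 calls in the averaged response, beside 283, and 37 in the strain difference, beside 22. Under array weights 8 genes had an unadjusted p below 0.05 in the averaged response, with a smallest limma adjusted p of 0.057, and 19 in the unstimulated strain difference, with 0.082. Among all genes, array weights gave 506 calls in the averaged response, beside 283 without them. In the unstimulated strain difference they gave 127, beside 11. A filter on dim probe sets was not run.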
